A study of Mus musculus with 24 samples.

Results

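Levels of 10 circadian clock genes were read in liver and bone marrow of Erfe-/- mice on 24 arrays. The genes are Arntl (also called Bmal1), Clock, Npas2, Per1, Per2, Per3, Cry1, Nr1d1, Nr1d2 and Dbp. They were selected by name, with earlier results of these data known, giving 10 of the 37008 gene names and 23 of the 56605 probes on the array. All mice were male and lacked Erfe, the gene of erythroferrone, a hormone of erythroid cells that lowers liver hepcidin. Blood was drawn by retro-orbital puncture, and each tissue was represented by 4 arrays at 0 h, labelled control, 4 at 24 h and 4 at 48 h after phlebotomy. No wild-type mouse and no unbled mouse at 24 or 48 h entered these comparisons, so time and blood loss cannot be told apart. The later times lie whole days after the first, nominally at the same clock hour, but the hour of sampling, the light schedule and the age of the mice are not given in the sources used here.

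The circadian clock is a transcriptional loop found in most cells of the body. Arntl pairs with Clock or Npas2 and activates genes through E-box sequences, the Per and Cry proteins inhibit that pair, and the nuclear receptors encoded by Nr1d1 and Nr1d2 (REV-ERB alpha and beta) repress Arntl through a response element shared with the ROR activators. Dbp, a target of the loop, activates genes through D-box sequences and in liver controls many genes of metabolism. Transcripts of Dbp, Nr1d1 and the Per genes swing widely over a day in liver, where feeding, temperature and glucocorticoids also set the phase.

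The promoters below show where the letters of these elements lie in the members' own genes. RefSeq promoter windows of assembly GRCm38.p6, 250 bases before to 50 bases after each annotated start, were matched for 9 of the 10 genes (13 windows), and Per2 was not matched. The E-box CACGTG, searched on both strands, was found in windows of 2 members, Per1 and Cry1, and in 7.15% of all 32851 windows. The D-box TTATGTAA was found in Per3, in 2 copies, and in 0.938% of all windows. The REV-ERB and ROR element TAGGTCA was found in Arntl and in 2.61% of all windows. The matched letters are in capitals and none of the matches overlap. These are letter matches only, and a window without a match is not evidence about any factor. The Per1 sequence is chr11:69098699-69098948 on the plus strand, before the upstream of its starts. The Cry1 sequence is chr10:85185055-85185304 on the minus strand, the Per3 sequence is chr4:151044666-151044915 on the minus strand, and the 30 bases of Arntl are chr7:113207529-113207558 on the plus strand, just past one of its starts.
Per1: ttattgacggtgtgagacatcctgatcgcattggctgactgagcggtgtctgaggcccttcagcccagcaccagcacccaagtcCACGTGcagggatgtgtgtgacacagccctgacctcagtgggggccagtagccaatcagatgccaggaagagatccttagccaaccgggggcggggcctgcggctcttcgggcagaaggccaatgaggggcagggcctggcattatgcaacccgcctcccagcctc
Cry1: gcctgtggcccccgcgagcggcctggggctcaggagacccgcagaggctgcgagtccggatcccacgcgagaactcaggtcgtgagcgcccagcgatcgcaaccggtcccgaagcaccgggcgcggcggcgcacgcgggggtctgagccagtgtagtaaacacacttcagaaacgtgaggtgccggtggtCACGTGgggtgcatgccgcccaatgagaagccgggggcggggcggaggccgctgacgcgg
Per3: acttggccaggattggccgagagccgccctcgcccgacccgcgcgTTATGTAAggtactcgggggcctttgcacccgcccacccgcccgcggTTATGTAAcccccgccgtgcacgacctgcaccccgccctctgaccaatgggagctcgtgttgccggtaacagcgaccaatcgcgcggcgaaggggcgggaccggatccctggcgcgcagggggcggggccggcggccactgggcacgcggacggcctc
Arntl: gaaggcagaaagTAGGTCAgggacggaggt

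A level is the log2 of a probe's processed intensity minus the 75th percentile of its array, so 1 unit is a doubling and a level of 0 is the brightness of the array's 75th percentile. Levels of different probes are not comparable, and each gene is set only against itself. The 75th percentile of intensity lay between 361.2 and 473.1 in liver and between 715.0 and 954.7 in marrow, and the probes well above background numbered 28014 to 34428 per liver array and 32009 to 35700 per marrow array. The 20 liver markers were bright on every liver array, while the marrow replicate 2 at 24 h carried them at 11.5% of the liver mean against 0.00266% to 0.0229% on the other 11 marrow arrays. Marrow results are therefore also given without that array. In such bulk tissues fewer cells of a type and less RNA per cell cannot be told apart.

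In marrow the activators were lower and the output gene Dbp, Per3 and both REV-ERB genes were higher after phlebotomy, by 1.38- to 1.70-fold at 24 h for the higher genes, but 0 of the 9 members tested passed an adjusted p of 0.05 at any time (limma, Benjamini-Hochberg over all 21381 genes). The share of all genes past that threshold was 1.01% for 24 h against 0 h, 1.23% for 48 h against 0 h and 0.00468% for 48 h against 24 h. Leaving out single arrays took the first of these shares as low as 0.327% (without the 0 h replicate 2) and the next as low as 0.458% (without the 48 h replicate 2), and without a filter on dim probes they were 0.186% and 0.27%. Without adjustment, 4 of 9 members had a p under 0.05 at 24 h, 5 at 48 h and 1 between 24 h and 48 h, against 12.6%, 16% and 7.69% of all genes. The median size of the difference over the members was 0.47 at 24 h and 0.29 at 48 h on the log2 scale, against 0.13 and 0.15 over all genes. Both comparisons use the same 0 h arrays. The exact permutation test of 4 arrays against 4 cannot give a two-sided p below 0.0286.

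**Figure D1:**
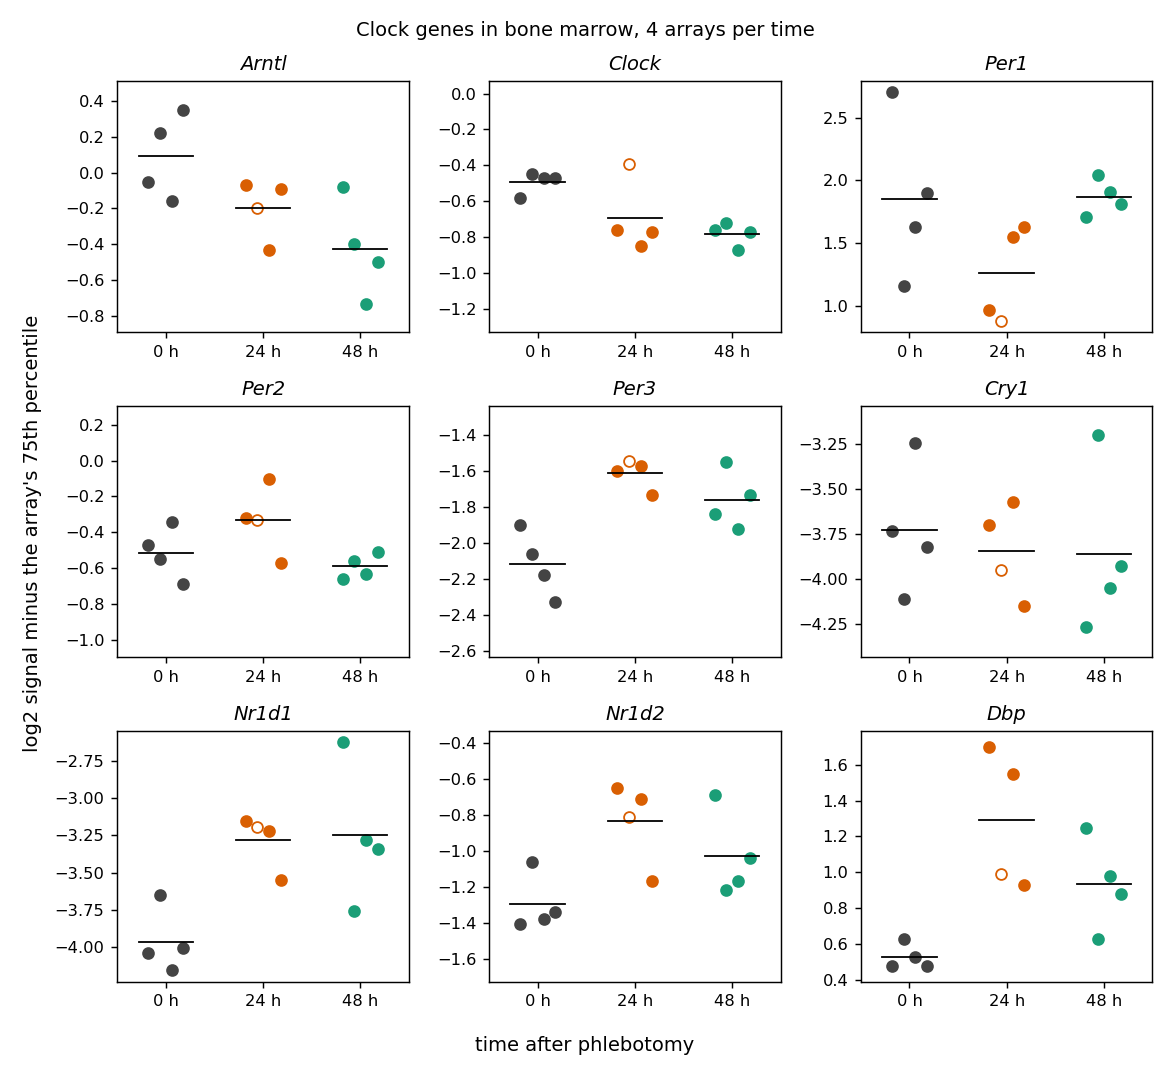
Level of each clock gene on the 12 marrow arrays (log2 intensity minus the array's 75th percentile, vertical axis) by time after phlebotomy, with 1 point per array, a line at the group mean and an open circle for the 24 h replicate 2 that carried liver transcripts. Per3, Dbp and Nr1d1 at 24 h lie wholly above 0 h, and Clock at 48 h lies wholly below 0 h.

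Arntl encodes the activator on which the whole loop depends. Its marrow level was -0.05, 0.22, -0.16 and 0.35 on the arrays at 0 h, -0.07, -0.20, -0.43 and -0.09 at 24 h, and -0.08, -0.40, -0.73 and -0.50 at 48 h. The 48 h arrays were mostly lower, although replicate 1 stayed within the 0 h range. The mean was 0.09 ± 0.24 (SD, n = 4) at 0 h and -0.43 ± 0.27 at 48 h, a difference of -0.52 (SE 0.15), or 1.43-fold lower, with an adjusted p of 0.131 (limma). A slide here means 8 arrays that share a scan date in the file headers, and no slide label was read. Within the 3 slides the 48 h difference was -0.17, -0.40 and -0.85. At 24 h the difference was -0.29 (SE 0.15), with an adjusted p of 0.47 (limma), and it was -0.53 as the mean of the 3 Arntl probes and -0.19 with array weights. The other Arntl probes were dim, and each had 1 bright array at 0 h. There A_55_P2735445 read -1.18 on replicate 1 against -3.58 to -3.15 on the others. A_66_P127371 read -2.46 on replicate 3 against -4.83 to -4.35.

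Clock, the partner of Arntl, had the tightest marrow levels of the 9 genes. It stood at -0.58, -0.45, -0.47 and -0.47 at 0 h, -0.76, -0.39, -0.85 and -0.77 at 24 h, and -0.76, -0.72, -0.87 and -0.77 at 48 h. All 48 h arrays lay below all 0 h arrays, and at 24 h only replicate 2, the array with liver transcripts, broke the separation. Clock had a much higher level in liver, given further on, but the part of liver transcripts in that reading was not tested. The mean was -0.49 ± 0.06 (SD, n = 4) at 0 h and -0.78 ± 0.06 at 48 h. The difference at 48 h was -0.29 (SE 0.10; adjusted p = 0.181, limma), and within slides it was -0.24, -0.33 and -0.30. Without the 24 h replicate 2, which takes part in the estimate of the spread, its adjusted p was 0.0568, and 26 alternatives gave 0.0511 to 0.44. Without replicate 2 at 24 h the 24 h difference moved from -0.20 (SE 0.10; adjusted p = 0.427, limma) to -0.30 (SE 0.07; adjusted p = 0.101), where the alternatives tried gave adjusted p from 0.1 to 0.755. A second Clock probe, A_52_P279391, was lower without overlap at both times, by -0.31 (SE 0.11) and -0.33 (SE 0.11). The third, A_52_P334670, differed by -0.22 (SE 0.09) at 24 h with overlap and by -0.33 (SE 0.09) at 48 h without. On A_52_P279391 the 24 h replicate 2 read -3.11, above the other 24 h arrays (-3.41 to -3.30). On A_52_P334670 it read -2.37, within the range of the other 24 h arrays (-2.56 to -2.30).

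Npas2, the alternative partner of Arntl, was at the edge of detection and was not tested. Its single probe was well above background on 5 of 12 liver arrays (0 h replicates 1 and 4, 24 h replicates 2, 3 and 4) and on 1 of 12 marrow arrays (0 h replicate 2). In liver it read -4.24, -4.09, -4.01 and -4.19 at 0 h, -5.88, -4.49, -4.26 and -3.93 at 24 h, and -5.29, -4.65, -5.29 and -4.98 at 48 h. All 4 liver arrays at 48 h were not well above background, so only a bound exists there. Without the brightness filter Npas2 at 0 h was lower in marrow than in liver (-1.84; adjusted p = 0.00672, limma), a value that rests mostly on readings not above background.

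Per1 encodes an inhibitor of the Arntl and Clock pair and is also an early responder to glucocorticoids. Its marrow level was 2.70, 1.16, 1.63 and 1.90 at 0 h, 0.97, 0.88, 1.55 and 1.63 at 24 h, and 1.71, 2.04, 1.91 and 1.81 at 48 h. The 0 h arrays spanned more than the others, and the 48 h arrays all lay above the 24 h arrays. The 24 h difference of -0.59 (SE 0.28; adjusted p = 0.419, limma) became -0.30 (adjusted p = 0.623) without the 0 h replicate 1, with adjusted p from 0.308 to 0.735 over 26 alternatives. Between 48 h and 24 h the difference was 0.61 (SE 0.28; exact permutation p = 0.0286), with an adjusted p of 0.647 (limma).

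Per2, a second inhibitor, lay close together in all marrow groups. It read -0.47, -0.55, -0.34 and -0.69 at 0 h, -0.32, -0.33, -0.10 and -0.57 at 24 h, and -0.66, -0.56, -0.63 and -0.51 at 48 h. The times overlapped, with differences of 0.19 (SE 0.11) at 24 h and -0.08 at 48 h from 0 h. Neither passed the threshold.

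Per3, the Per gene least needed for the rhythm itself, had the smallest adjusted p of the members. Its probe A_66_P137063 read -1.90, -2.06, -2.18 and -2.33 in marrow at 0 h, -1.60, -1.54, -1.57 and -1.73 at 24 h, and -1.84, -1.55, -1.92 and -1.73 at 48 h. Every 24 h array was above every 0 h array, and the 48 h arrays lay between and across. The mean was -2.12 ± 0.18 (SD, n = 4) at 0 h and -1.61 ± 0.08 at 24 h. The 24 h difference was 0.51 (SE 0.11), or 1.42-fold, with an exact permutation p of 0.0286 and an adjusted p of 0.0548 (limma). It was 0.38, 0.64 and 0.68 within the 3 slides, and 0.48 (SE 0.12; adjusted p = 0.115) without the 24 h replicate 2. Leaving out the 0 h replicate 1 brought the adjusted p to 0.0445 and leaving out the 48 h replicate 2 to 0.0474, and its range over 26 alternatives was 0.0318 to 0.638. The other kept Per3 probe, A_55_P2752088, which lies elsewhere in the gene, gave 0.17 (SE 0.15) in marrow at 24 h with overlapping groups.

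Cry1, a repressor that works with the Per proteins, was dim in marrow. It read -3.73, -4.11, -3.24 and -3.82 at 0 h, -3.70, -3.95, -3.57 and -4.15 at 24 h, and -4.27, -3.20, -4.05 and -3.93 at 48 h. The 3 times overlapped fully, with differences of -0.12 and -0.14 from 0 h. A second Cry1 probe, A_55_P2880103, differed by -0.74 at 48 h (SE 0.29; adjusted p = 0.242 over all probes, limma), also with overlap.

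Nr1d1, a repressor of Arntl and a direct target of the Arntl and Clock pair, was among the genes higher in marrow after phlebotomy. It read -4.04, -3.65, -4.16 and -4.01 at 0 h, -3.15, -3.19, -3.22 and -3.55 at 24 h, and -2.62, -3.76, -3.28 and -3.34 at 48 h. The 24 h arrays all exceeded the 0 h arrays, while at 48 h replicate 2 lay inside the 0 h range. The mean was -3.97 ± 0.22 (SD, n = 4), -3.28 ± 0.18 and -3.25 ± 0.47 at the 3 times. The difference was 0.69 (SE 0.21; adjusted p = 0.176, limma) at 24 h, a 1.61-fold difference, and 0.72 (SE 0.21; adjusted p = 0.123) at 48 h. With the normexp background correction, which moves dim probes most, these were 0.34 and 0.40. Within slides the 24 h difference was 0.70, 0.97 and 0.63.

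Nr1d2, the paralogue with the same target element, had marrow differences of the same sign as Nr1d1. Its probe A_55_P2911007 read -1.41, -1.06, -1.38 and -1.34 in marrow at 0 h, -0.65, -0.81, -0.71 and -1.17 at 24 h, and -0.69, -1.22, -1.17 and -1.04 at 48 h. Only the 24 h replicate 4 kept the first groups from separating. The difference was 0.47 (SE 0.14; adjusted p = 0.192, limma) at 24 h and 0.27 (SE 0.14; adjusted p = 0.385) at 48 h, the latter 0.16 without the 48 h replicate 1. Its other probes, A_52_P303891 and A_55_P2148534, were higher without overlap at both times, by 0.44 and 0.59 at 24 h and by 0.40 and 0.34 at 48 h.

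Dbp, the output activator, showed the largest marrow difference at 24 h among the 9 genes tested. It read 0.48, 0.63, 0.53 and 0.48 at 0 h, 1.70, 0.99, 1.55 and 0.93 at 24 h, and 1.25, 0.63, 0.98 and 0.88 at 48 h. The 0 h arrays were tightly grouped, every 24 h array was above them, and at 48 h replicate 2 equalled the highest 0 h array to 2 decimals. The mean was 0.53 ± 0.07 (SD, n = 4) at 0 h and 1.29 ± 0.39 at 24 h. The 24 h difference was 0.76 (SE 0.18), or 1.70-fold, with an adjusted p of 0.0797 (limma), and the 48 h difference was 0.41 (SE 0.18; adjusted p = 0.301). Without the 24 h replicate 2 the 24 h difference was 0.86 (SE 0.19; adjusted p = 0.0779), and the range of the adjusted p over 26 alternatives was 0.0511 to 0.283. Within slides it was 1.14, 0.47 and 0.76, and the second Dbp probe, A_55_P2032079, gave 0.83 (SE 0.21).

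Counted over the tested probes, 3 of 9 members did not overlap between 24 h and 0 h (Per3, Dbp and Nr1d1, all higher), against 8.24% of all genes, 4.16% being higher. At 48 h against 0 h it was 1 of 9 (Clock, lower) against 12.7%, of which 4.64% lower, and between 48 h and 24 h 1 of 9 (Per1, higher) against 3.65%, of which 2.77% higher. Without the 24 h replicate 2 the first count was 4 of 9, with Clock added as lower, against 13.8% of all genes. The other counts stayed at 1 of 9 (Clock) and 1 of 9 (Per1), against 12.6% and 5.81%. Without that array 0 of 9 members passed an adjusted p of 0.05 in any marrow comparison (limma), beside 0.628%, 1.77% and 0.00465% of all genes. When each kept probe was tested on its own, 7 of 18 member probes did not overlap at 24 h against 7.92% of all probes, and 5 of 18 at 48 h against 12.3%, with 0 past an adjusted p of 0.05 (limma; 0.845% and 1.21% of all probes). At 24 h these were probes of Clock, Per3, Dbp, Nr1d1 and Nr1d2, and at 48 h of Clock and Nr1d2 only. Probes of 1 gene on the same arrays are not independent, so these counts are not counts of genes.

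**Figure D2:**
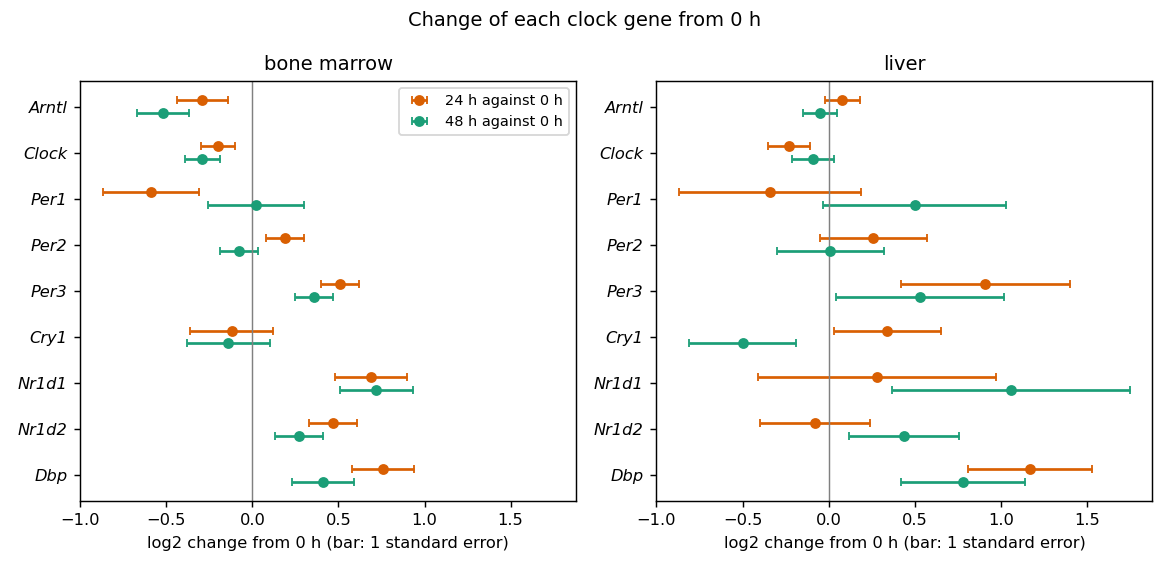
Difference from 0 h for each clock gene at 24 h and 48 h in marrow and liver (log2 scale, points are limma estimates and bars 1 standard error to each side). In marrow Dbp, Nr1d1, Per3 and Nr1d2 sit at 0.47 to 0.76 at 24 h, and the liver bars are longest for Nr1d1, Per1 and Per3.

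In liver Dbp, Per3 and Nr1d1 had the largest differences from 0 h, up to 2.25-fold for Dbp at 24 h, but mice of the same time spread widely. Of the 9 members tested 0 passed an adjusted p of 0.05 in any of the 3 comparisons, where the share of all 19639 genes was 0% in each (limma). Without adjustment, 1, 0 and 1 of 9 members had a p under 0.05 for 24 h against 0 h, 48 h against 0 h and 48 h against 24 h, beside 10.9%, 6.45% and 7.63% of all genes. No member's groups were free of overlap, beside 5.52%, 4.15% and 3.66% of all genes.

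**Figure D3:**
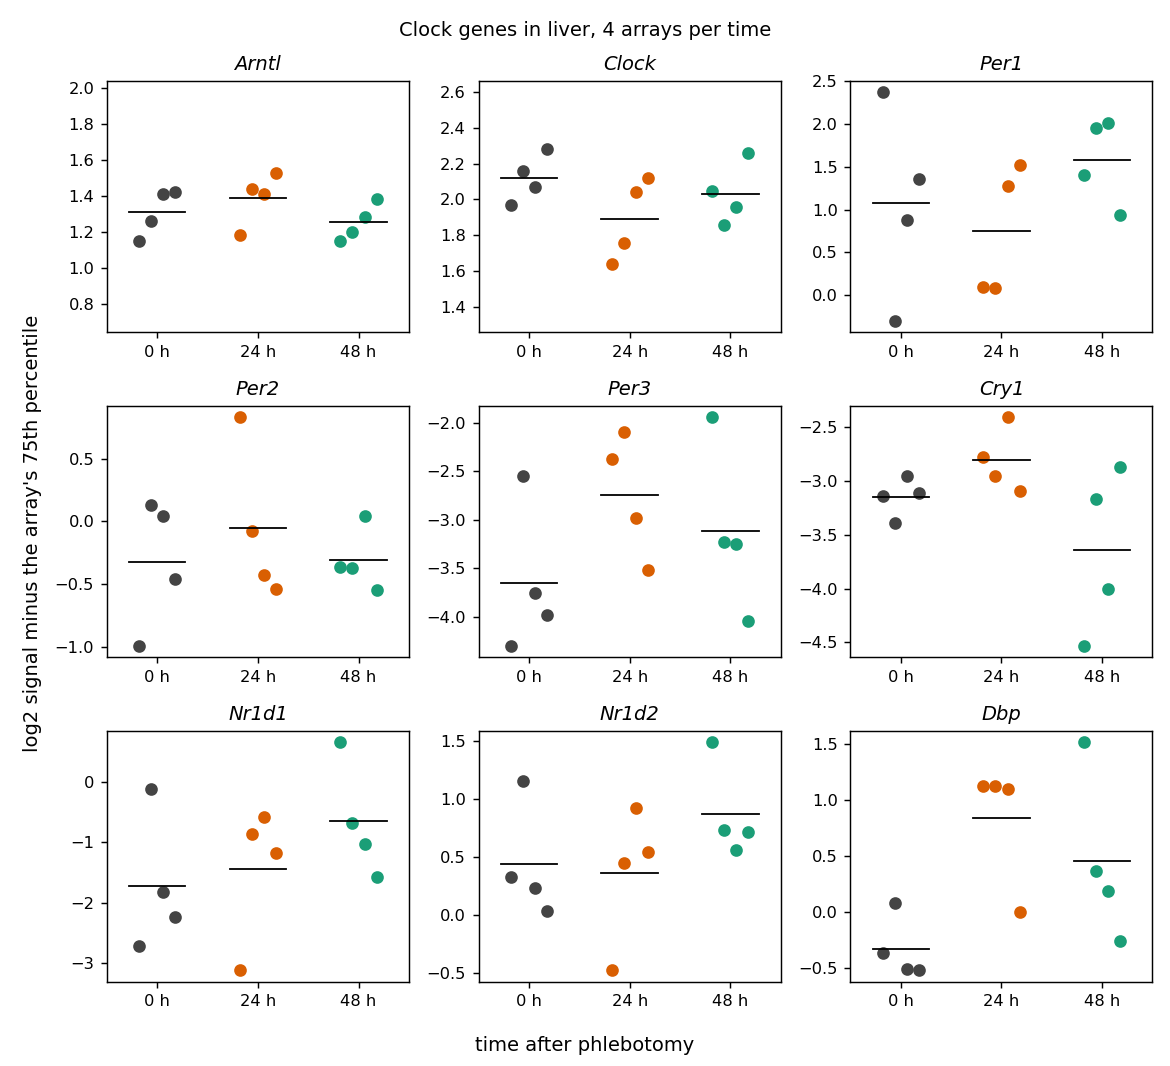
Level of each clock gene on the 12 liver arrays (log2 intensity minus the array's 75th percentile, vertical axis) by time after phlebotomy, with 1 point per array and a line at the group mean. Every panel shows overlapping times, and Nr1d1 runs from -3.12 to 0.66 while Arntl stays between 1.15 and 1.53.

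The liver activators lay close together on all arrays. Arntl read 1.15, 1.26, 1.41 and 1.42 at 0 h, 1.18, 1.44, 1.41 and 1.53 at 24 h, and 1.15, 1.20, 1.28 and 1.38 at 48 h. Clock read 1.97, 2.16, 2.07 and 2.28 at 0 h, 1.64, 1.76, 2.04 and 2.12 at 24 h, and 2.05, 1.86, 1.96 and 2.26 at 48 h. Both genes overlapped between all times, with Arntl differing by 0.08 at 24 h and Clock by -0.23 (adjusted p = 0.519, limma).

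The liver Per genes and Cry1 overlapped between all times on the probes tested. Per1 read 2.37, -0.30, 0.88 and 1.36 at 0 h, 0.10, 0.08, 1.28 and 1.52 at 24 h, and 1.41, 1.96, 2.01 and 0.94 at 48 h. Per2 read -0.99, 0.13, 0.04 and -0.46 at 0 h, 0.83, -0.08, -0.43 and -0.54 at 24 h, and -0.36, -0.37, 0.04 and -0.55 at 48 h. The 0 h arrays of Per1 alone held both the lowest and the highest of its 12 values. Per3 read -4.30, -2.55, -3.76 and -3.98 at 0 h, -2.37, -2.09, -2.98 and -3.52 at 24 h, and -1.94, -3.23, -3.25 and -4.05 at 48 h, the last not well above background. Cry1 read -3.14, -3.39, -2.96 and -3.11 at 0 h, -2.78, -2.96, -2.41 and -3.09 at 24 h, and -4.53, -3.17, -4.00 and -2.87 at 48 h. The Per3 difference at 24 h was 0.91 (SE 0.49; adjusted p = 0.513, limma), 0.34 with normexp and 0.58 in the authors' deposited values.

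A Per3 probe and a Cry1 probe, both dimmer than those tested above, separated times in liver. The Per3 probe A_55_P2752088 read -4.04, -3.66, -4.07 and -4.25 at 0 h and -2.79, -2.88, -3.23 and -3.40 at 24 h. These groups did not overlap, and the difference was 0.93 (SE 0.17) with an adjusted p of 0.291 over all 28784 liver probes (limma). The Cry1 probe A_55_P2880103 read -3.06, -3.20, -3.29 and -2.93 at 24 h and -4.05, -3.63, -3.81 and -3.89 at 48 h, a difference of -0.73 (SE 0.13; adjusted p = 0.276, limma) without overlap. They are named here because they separated, and were 1 of 18 member probes without overlap in each of those comparisons. The share of all probes was 5.36% and 3.81%, so 1 of 18 is about what any set of probes would give.

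Of all members Nr1d1 had the widest liver range. It read -2.72, -0.11, -1.82 and -2.23 at 0 h, -3.12, -0.87, -0.58 and -1.18 at 24 h, and 0.66, -0.68, -1.02 and -1.58 at 48 h. The means were 1.06 apart at 48 h (SE 0.69; adjusted p = 0.873, limma), or 0.63 without the 48 h replicate 1 and 1.60 without the 0 h replicate 2. Its within-slide differences at 24 h were -1.71, 0.95 and 1.35, so they differed in sign. Nr1d2, on its liver probe A_55_P2148534, read 0.33, 1.15, 0.23 and 0.03 at 0 h, -0.48, 0.45, 0.92 and 0.54 at 24 h, and 1.49, 0.73, 0.56 and 0.71 at 48 h. It overlapped at all times, with differences of -0.08 and 0.44, the latter 0.23 without the 48 h replicate 1 and 0.68 without the 0 h replicate 2.

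Dbp in liver read -0.36, 0.08, -0.51 and -0.52 at 0 h, 1.13, 1.13, 1.10 and 0.00 at 24 h, and 1.52, 0.37, 0.19 and -0.26 at 48 h. Of the 24 h arrays 3 stood together above all 0 h arrays and replicate 4 lay among them. The mean was -0.33 ± 0.28 (SD, n = 4) at 0 h and 0.84 ± 0.56 at 24 h. The difference was 1.17 (SE 0.36), or 2.25-fold, with an exact permutation p of 0.0571 and an adjusted p of 0.355 (limma). It was 1.27, 1.64 and 1.07 within slides. At 48 h the difference was 0.78 (SE 0.36; adjusted p = 0.783), with within-slide values of 1.67, 0.79 and 0.26, and it was 0.43 without the 48 h replicate 1.

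The spread between mice of 1 tissue and time separated the loop's genes. In liver the residual SD, taken after the time means were removed, was 1.082 for Nr1d1, 0.831 for Per1, 0.764 for Per3 and 0.569 for Dbp, against a median of 0.177 over all liver genes. Those 4 genes stood at or above the 95.1 percentile of all liver genes. Nr1d2 (0.508), Per2 (0.487) and Cry1 (0.483) were close behind, at the 93.2, 92.5 and 92.2 percentiles. Arntl (0.129) stood at the 31.6 percentile and Clock (0.182) at 51.8. In marrow the widest was Per1 at 0.441, at the 88 percentile, and Per3 (0.148) and Clock (0.129) were below the median of 0.188. The liver value was 5.16 times the marrow value for Per3, 3.41 times for Per2 and 3.39 times for Nr1d1, and 0.563 times for Arntl. These values are of the 1 probe that stood for each gene in the tissue. At 0, 24 and 48 h the Per3 probe A_55_P2752088 had SDs of 0.25, 0.29 and 0.22 in liver against 0.19, 0.28 and 0.18 in marrow. The Cry1 probe A_55_P2880103 had SDs of 0.24, 0.16 and 0.18 in liver against 0.72, 0.22 and 0.19 in marrow. The spread was not tested between tissues, and the hour at which each mouse was sampled is not given in the sources used here.

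**Figure D4:**
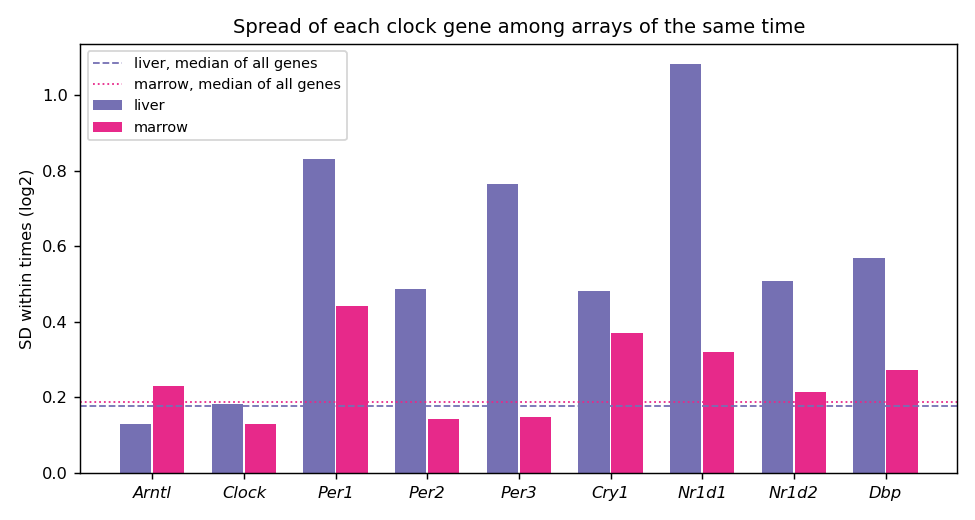
Residual SD of each clock gene within a tissue and time (log2 units) in liver and marrow, with the median over all genes of the tissue as a line. Nr1d1 in liver is at 1.082, and on the probe that stood for each gene only Arntl of the 9 is more variable in marrow. The other Cry1 probe, not drawn, was also more variable in marrow than in liver.

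Some pairs of members varied together between mice of the same time, as a description. With the time means removed, Nr1d1 and Nr1d2 correlated over 12 liver arrays (r = 0.92, rho = 0.85) and over 12 marrow arrays (r = 0.88, rho = 0.88). Per3 and Dbp gave r = 0.87 and rho = 0.85 in liver, and Dbp and Nr1d2 gave r = 0.79 and rho = 0.76 in marrow. Without the 2 arrays farthest from the median these r were 0.84, 0.90, 0.79 and 0.68. Of 36 pairs per tissue, 6 in liver and 8 in marrow had a permutation p under 0.05 and 0 remained after Benjamini-Hochberg adjustment, the smallest adjusted p being 0.0823. These are descriptions over arrays that share slides and normalisation.

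At 0 h the tissues differed in 6 of the 9 members at an adjusted p under 0.05 (limma over 22768 genes, 24 arrays), beside 80.3% of all genes. In marrow at 0 h Clock was 6.11-fold lower than in liver (-2.61, SE 0.11; adjusted p = 1.47e-14), Nr1d1 4.75-fold lower (-2.25, SE 0.54; adjusted p = 0.000727), Nr1d2 3.22-fold lower on the probe A_55_P2911007 (-1.69, SE 0.26; adjusted p = 6.16e-06) and Arntl 2.33-fold lower (-1.22, SE 0.13; adjusted p = 3.17e-08). Per3 was 2.89-fold higher in marrow (1.53, SE 0.37; adjusted p = 0.000839), or 0.50 higher in log2 units with normexp, and Dbp was 1.81-fold higher (0.86, SE 0.30; adjusted p = 0.0138). Per1, Per2 and Cry1 did not pass, with intervals of -0.17 to 1.71, -0.71 to 0.32 and -1.19 to 0.04. Per1 passed without the liver 0 h replicate 1 (1.20; adjusted p = 0.0146), was 0.31 without the liver 0 h replicate 2 and was 0.49 without the marrow 0 h replicate 1, its adjusted p ranging from 0.0146 to 0.496 over 37 alternatives. Cry1 passed without the marrow 0 h replicate 3 (-0.74; adjusted p = 0.0365) or the liver 48 h replicate 1 (-0.57; adjusted p = 0.0416), its adjusted p ranging from 0.000305 to 0.201.

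The difference between tissues in the response itself was past an adjusted p of 0.05 for 0 of 9 members at 24 h and 0 of 9 at 48 h, beside 0.369% and 0.413% of all genes (limma interaction). The smallest unadjusted p at 48 h was that of Arntl, whose marrow difference minus its liver difference was -0.46 with a 95% interval of -0.85 to -0.07, an unadjusted p of 0.0213 under limma and an adjusted p of 0.35. For Dbp at 24 h the difference was -0.41 with an interval of -1.31 to 0.49, and for Nr1d1 it was 0.41 with an interval of -1.19 to 2.01. Both of the latter intervals include 0.

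None of the other clock genes passed the threshold. Of 20 further genes of the loop, 17 were tested in liver and 15 in marrow, and 0 passed an adjusted p of 0.05 in any time comparison (limma). At 24 h 1 of 15 in marrow had an unadjusted p under 0.05 (limma), beside 12.6% of all genes. That gene was Tef, a relative of Dbp that binds the same element. Its marrow level was 1.72, 1.84, 1.85 and 1.92 at 0 h, 2.44, 2.19, 2.32 and 2.0 at 24 h, and 2.27, 1.93, 1.93 and 1.94 at 48 h. All later arrays were above all 0 h arrays, with differences of 0.40 (SE 0.11; adjusted p = 0.131) and 0.19 (SE 0.11; adjusted p = 0.431). Tef is named here after its values were seen. Over all marrow genes 8.24% did not overlap at 24 h and 12.7% at 48 h. Hlf, the third gene of that family, differed by 0.12 and 0.22 in marrow, the repressor Nfil3 by -0.07 and -0.30, Cry2 by 0.12 and 0.01, and Bhlhe40 by 0.21 and 0.08. In liver the activator Rora was at -0.28 (SE 0.10; adjusted p = 0.387) and -0.23 from 0 h. Ciart, Bhlhe41 and Rorb did not pass the brightness filter in either tissue.

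Lists of genes that respond to the clock or to its cues gave 0 or 1 call each in a comparison. Over all marrow genes the share called was 1.01% at 24 h and 1.23% at 48 h. Of 14 clock outputs, 14 were tested in liver and 12 in marrow, and 0 passed in any comparison. Of 12 glucocorticoid targets, all tested in both tissues, Mt2, a metal-binding metallothionein, rose in marrow, 1.16 (SE 0.11; adjusted p = 0.000529, limma) above 0 h after 1 day and 1.15 (adjusted p = 0.000547) above it after another. It was the only one of the 12 past the threshold, and the median over the list was -0.03 and -0.07. Of 10 heat shock and temperature genes Hspd1, a mitochondrial chaperonin, rose in marrow by 0.47 (adjusted p = 0.0145) and 0.41 (adjusted p = 0.03), and the other 9 did not pass. Of 12 genes of feeding and fasting, 12 were tested in liver and 6 in marrow, with 0 past the threshold. In liver 0 genes of these lists passed, beside 0% of all genes. Without adjustment, p was under 0.05 (limma) in marrow at 24 h and 48 h for 5 and 3 of the 12 glucocorticoid targets. For the 10 heat shock and temperature genes the counts were 4 and 6, for the 12 clock outputs 3 and 1. For the 6 genes of feeding and fasting they were 0 and 0. The shares of all marrow genes were 12.6% and 16%.

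The genes most like Dbp and those most like Arntl over the marrow arrays were read as separate lists. Dbp and Arntl themselves correlated at -0.30 over the same 11 arrays, so genes this near to both could not occur. Over 11 marrow arrays, leaving out the 24 h replicate 2, the named genes outside the members with the highest Pearson correlation with Dbp were Tef (0.95), Stc1 (0.89), Akr1b8 (0.89), Ecscr (0.88) and Fbxo45 (0.87), and the nearest member was Nr1d2 (0.93). With the time means removed these were 0.86, 0.59, 0.60, 0.53, 0.69 and 0.89. Stc1, which encodes stanniocalcin, rose in marrow at 24 h by 3.35 (SE 0.34; adjusted p = 0.000816, limma over 12 arrays), Akr1b8 by 0.82 (SE 0.14; adjusted p = 0.0186) and Ecscr by 0.68 (SE 0.08; adjusted p = 0.00337). Tef, given above, did not pass, and the difference of Fbxo45 is not given here. All were picked for following Dbp, itself higher at 24 h, on these same arrays. A rise was thus partly built into the choice, and these p-values are no independent support. For Arntl the nearest were Scn4b (0.97), Lig4 (0.97), Dntt (0.97), Igll1 (0.96) and Vpreb1 (0.96), and after removing the time means 0.94, 0.95, 0.93, 0.93 and 0.91. The nearest member was Clock at 0.77. Dntt encodes the terminal transferase of lymphoid precursors, Igll1 and Vpreb1 the surrogate light chain of early B cells, and Lig4 the ligase that joins rearranged receptor genes. At 48 h these 5 genes were at -1.11, -0.39, -0.65, -1.02 and -1.03 from 0 h, with 0 past the threshold (adjusted p 0.109 to 0.175). Their direction was likewise partly built in, since Arntl itself was lower at 48 h.

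**Figure D5:**
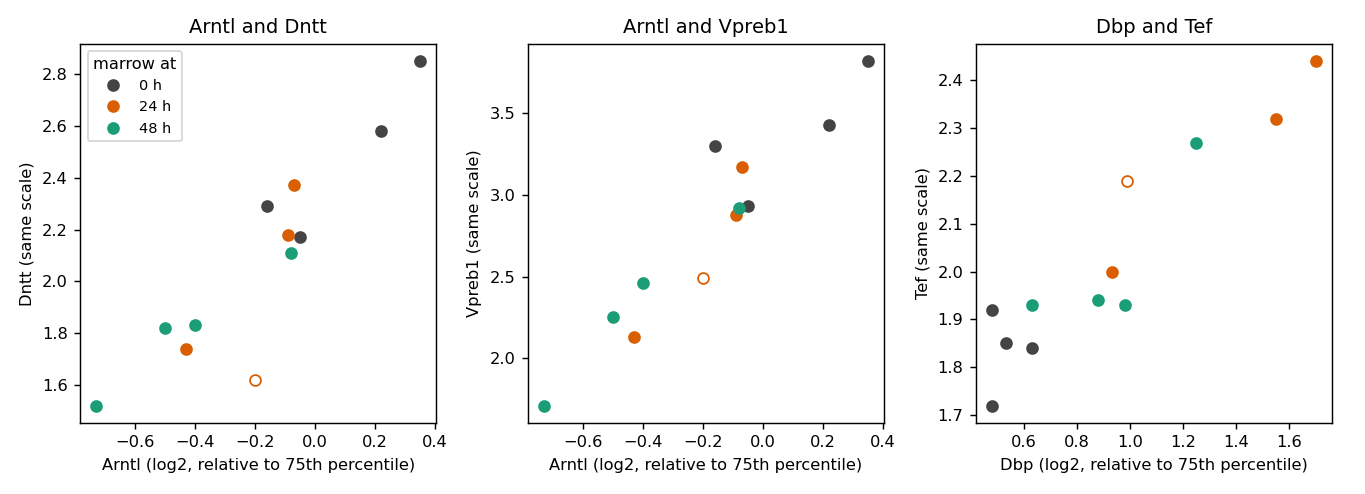
Marrow level of Arntl (horizontal axis) against Dntt and Vpreb1 and of Dbp against Tef (log2 intensity minus the array's 75th percentile on both axes), with 1 point per array, colours for time and an open circle for the 24 h replicate 2. Arrays with more Arntl have more Dntt and Vpreb1 (r = 0.97 and 0.96 over 11 arrays), and arrays with more Dbp have more Tef (r = 0.95).

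Markers of other cells were read on the same arrays. The summed linear level of 10 B cell markers, all above background in all marrow groups, was 75.7 to 125 at 0 h, 54.4 to 84.3 at 24 h and 54.3 to 107 at 48 h, with 0 of 10 past the threshold and median differences of -0.62 and -0.41. The T and NK cell sum was 12.7 to 14.5 at 0 h, 6.79 to 10.7 at 24 h and 9.54 to 11.5 at 48 h, where Cd3d, named here after its values were seen, fell at 24 h by 0.64 (adjusted p = 0.0352, limma). The erythroid sum was 1140 to 1470, 1130 to 1330 and 1360 to 1670, with median differences over its 10 genes of 0.12 and 0.51. Only Tfrc of the 10, likewise named afterwards, passed the threshold, and it was higher (24 h: 0.80, adjusted p = 0.0143, and 48 h: 1.02, adjusted p = 0.00324, limma). Neutrophil sums were 2200 to 3200, 2200 to 2860 and 2150 to 2960, and stroma sums were 805 to 958, 481 to 890 and 338 to 853. Megakaryocyte sums were 208 to 270, 209 to 258 and 191 to 338, and monocyte and macrophage sums were 227 to 278, 192 to 269 and 176 to 258. Without adjustment, p was under 0.05 (limma) at 24 h and 48 h for 7 and 2 of 10 B cell markers and 6 and 3 of 9 T and NK cell markers. The counts were 4 and 7 of 10 erythroid, 5 and 4 of 11 monocyte and macrophage, and 1 and 1 of 8 stroma markers. They were 0 for neutrophil and megakaryocyte markers, and the shares of all genes were 12.6% and 16%. The part of these cells in the marrow values of Arntl and the other members was not tested.

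In liver over 12 arrays the nearest named genes to Dbp, leaving out predicted genes and entries known only by accession, position or probe, were Cyp3a59 (0.88), Rab6b (0.85), Cyp3a25 (0.83), Cyp3a57 (0.82) and Gata6os (0.82), and the member Per3 (0.88). The 3 Cyp3a genes encode cytochrome P450 enzymes of 1 family whose transcripts are alike, so their probes may not be independent. With the time means removed they gave 0.91, 0.83 and 0.82. By the same rule those nearest to Arntl were Zfc3h1 (0.88), Tpst1 (0.87), Mrpl18 (0.87), Prkdc (0.85) and Cald1 (0.84). The early B cell genes near Arntl in marrow were not among them, and the B cell marker sum in liver was only 3.71 to 4.57 at 0 h. Their liver levels are not given here, so their absence is no contrast between the tissues.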

How the data were processed

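RNA of liver and bone marrow was measured on 24 Agilent single-colour arrays, 4 per tissue and time. The deposited scanner files give spot intensity from Agilent Feature Extraction 10.10.1.1, and this intensity had background removed and spatial trends corrected array by array, per the file headers. The authors' deposited table holds log2 values whose quantiles are equal within a tissue. How it was made is not given in the sources used here, limma being named in the submitters' processing notes without its role, and it served as an alternative.

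The processed intensity was converted to log2 and each array's 75th percentile was subtracted. Control spots (3671) and outlier spots (90 to 438 per array) were left out and spots of a probe averaged. Probes were kept that the scanner software found well above background throughout some group of 4 in the tissue, and the brightest kept probe stood for the gene. Probe names were updated through RefSeq for GRCm38.p6, while probe positions in the headers are those of mm9 and were not used. Each tissue was fitted with limma 3.58.1 in R 4.3.3 over its 12 arrays and the tissue comparisons over all 24, two-sided, with Benjamini-Hochberg adjustment over all genes and a threshold of 0.05. The scripts were tested on simulated data. Precision is limited by the small number of arrays.

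The named genes were all 10 members, other clock genes and cue-responsive genes from written lists (by name those past the threshold and 9 others, 1 of which is not reported here), and the 5 genes nearest to Dbp and to Arntl in each tissue outside the members, leaving out predicted genes and entries known only by accession, position or probe. Members, lists and tests were chosen with earlier results of these data known. The replicate numbers of the 2 tissues were not taken as pairs, since the labels do not tie them to a mouse.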

Additional observations from a re-analysis of the deposited data

Results flagged for a closer look

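3 of the 54 sets of 4 arrays (9 genes, 2 tissues, 3 times) held 1 array far from the other 3, where chance alone flags about 1 in 20. Dbp in liver at 24 h was 0.00 on replicate 4 against 1.10 to 1.13 on the others. Clock in marrow at 0 h was -0.58 on replicate 1 against -0.47 to -0.45. Nr1d1 in marrow at 24 h was -3.55 on replicate 4 against -3.22 to -3.15.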

How the results depend on the processing

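Of 2394 recomputed values for 81 member results, 2324 kept their direction and their side of the threshold, 12 came to pass the threshold, 0 were lost and 58 changed sign, all 58 uncalled under both settings. The number of members called in marrow at 24 h against 0 h was 0, and it was 1 (Per3) with quantile normalization (0.53; adjusted p = 0.0444, limma), the authors' deposited values (0.46; 0.0447), a stricter brightness filter (0.51; 0.0488) and array weights (0.49; 0.0318), and 0 to 1 when each array was left out in turn. At 48 h it was 1 with array weights (Per3, 0.39; adjusted p = 0.0477, range over alternatives 0.0477 to 0.721) and with all 24 arrays in 1 fit (Arntl, -0.52; 0.0428, range 0.0428 to 0.339). Over all genes the marrow calls at 24 h and 48 h, 217 and 264, were 135 and 380 without the 24 h replicate 2 (filter redone), 69 and 100 without a filter on dim probes, 142 and 123 with median scaling, 438 and 811 with array weights, 440 at 48 h in 1 fit of all arrays and 116 at 48 h with the slide as a block. Leaving out other single marrow arrays gave at 24 h 70 (0 h replicate 2), 107 (0 h replicate 3), 130 (0 h replicate 4), 112 (24 h replicate 1) and 129 (24 h replicate 4), and at 48 h 118, 109 and 110 (0 h replicates 1, 2 and 3), 175 and 171 (24 h replicates 1 and 4) and 135, 98 and 134 (48 h replicates 1, 2 and 4). With 6 members past the threshold between tissues at 0 h, normexp added Cry1 (-0.69; adjusted p = 0.000305) and no filter on dim probes added Npas2 (7 of 10).

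Signs that changed by setting were those of Clock in the tissue difference at 24 h (authors' deposited values -0.03, mean of probes -0.07, array weights -0.06), Cry1 in marrow from 24 h to 48 h (normexp 0.06, array weights 0.01), Nr1d1 in that comparison (quantile -0.01, median scaling -0.02, authors' deposited values -0.01), Nr1d2 in liver at 24 h (array weights 0.08), Per1 in marrow at 48 h (authors' deposited values -0.02, array weights 0.00), Per2 in liver at 48 h (array weights -0.06) and Per3 in the tissue difference under normexp (0.03 at 24 h, 0.09 at 48 h). The cause was not tested. With 1 array left out in turn, values that changed sign ranged from -0.80 to 0.09 for Per1, -0.27 to 0.20 for Nr1d2, -0.03 to 0.43 for Per2 and -0.05 to 0.84 for Nr1d1 in liver at 24 h, and for Per2 from -0.21 to 0.16 at 48 h and -0.41 to 0.04 between 24 h and 48 h. In marrow they ranged from -0.25 to 0.04 for Cry1 at 24 h, -0.36 to 0.02 for Cry1 and -0.21 to 0.31 for Per1 at 48 h, and between 24 h and 48 h from -0.14 to 0.01 for Clock, -0.18 to 0.20 for Nr1d1 and -0.24 to 0.12 for Cry1. In the tissue difference at 24 h they ranged from -0.68 to 0.21 for Per1, -0.07 to 0.11 for Clock, -0.24 to 0.22 for Per2 and -0.15 to 0.74 for Nr1d1, and at 48 h from -0.46 to 0.00 for Nr1d2, -0.24 to 0.14 for Per2, -0.88 to 0.09 for Nr1d1 and -0.54 to 0.22 for Per3.

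Replicate numbers shared by the times and tissues were tried as a replicate block. It left 0 members called in each of the 3 liver and 3 marrow comparisons and in both tissue differences, and 6 between tissues at 0 h, while calls over all marrow genes went from 217 to 125 at 24 h and from 264 to 98 at 48 h. Deviations of liver and marrow arrays of the same number and time correlated at 0.005 to 0.194, and 10 of 12 were highest with their own number, a hint from the data and not from the design, since such arrays also shared a slide. The slide as a block left 0 members called, with adjusted p of 0.0861 for Per3, 0.0656 for Dbp and 0.1 for Nr1d1 in marrow at 24 h. Dim probes limit Npas2, Cry1, Nr1d1 in marrow and Per3 in liver.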

Other observations

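Liver and marrow arrays of the same number and time were set side by side for the 9 members, although nothing in the labels says that they came from 1 mouse. With the time means removed, Per1 gave r = 0.95 over the 12 number-matched arrays (permutation p = 0.00239 within times, 0.0215 after Benjamini-Hochberg adjustment over 9 genes) and rho = 0.96 (p = 0.00203, adjusted 0.016). The median r over 17858 genes was 0.13. For Per1 r was 0.90 without the 2 arrays farthest from the median, 0.96 with the slide means removed and 0.94 without the marrow 24 h replicate 2. Cry1 gave r = 0.67 (adjusted permutation p = 0.161), rho = 0.83 (adjusted permutation p = 0.016) and r = 0.90 without the 2 farthest. Arntl, Clock, Per2 and Per3 gave r of -0.19, -0.21, 0.08 and 0.01, and Dbp, Nr1d1 and Nr1d2 0.61, 0.45 and 0.37, of which 0 passed after adjustment.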
